A study of Mus musculus with 6 samples.

Results

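The genes described here are 32 genes of sterol and fatty acid synthesis that are linked to the sterol regulatory element binding proteins (SREBPs). They were chosen by name, and all 32 were found among the 18392 genes listed. The sterol branch holds 22 of them, 19 enzymes and the genes Srebf2, Insig1 and Stard4, and the fatty acid branch holds 10, 9 enzymes and Srebf1. RNA was sequenced from sorted alveolar macrophages, which reside in the air spaces and clear particles and surfactant from them, taken from digested lungs of C57BL/6 mice 6 weeks of age. The 3 knockout libraries came from Cd11c-Cre Hdac3fl/fl mice, in which Cre recombinase is driven by the promoter of Cd11c (Itgax), a gene also active in dendritic cells. The 3 control libraries came from Hdac3fl/fl mice, so both groups carry the floxed alleles and only the knockouts carry Cre. Hdac3 encodes the deacetylase that NCoR and SMRT corepressors carry to chromatin. The comparison asks how expression differs between alveolar macrophages with and without Hdac3.

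Cells build cholesterol from acetyl-CoA through mevalonate, isoprenoid diphosphates, squalene and lanosterol, and they build palmitate from acetyl-CoA through malonyl-CoA before lengthening and desaturating it. SREBPs are made as membrane proteins of the endoplasmic reticulum, where INSIG proteins hold them with their escort SCAP while sterols are abundant. When sterols fall, the escort carries them to the Golgi, proteases release the active factor, and it raises transcription of the synthesis genes. SREBP2, encoded by Srebf2, acts mainly on sterol genes. SREBP1, encoded by Srebf1, acts mainly on fatty acid genes and is itself a target of the liver X receptors (LXRs). Alveolar macrophages live in lipid-rich surfactant, which they take up and break down.

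Expression is given in FPKM, the authors' count of fragments per gene scaled by transcript length and library size. Hdac3 itself read 4.36, 5.05 and 3.97 FPKM in knockout libraries, against 17.7, 19.9 and 16.9 FPKM in control libraries, so the groups did not overlap. Its change was -1.81 (SE 0.092; limma adjusted p = 6.8e-07), and gene-level values do not show which exons the remaining reads cover. Every marker of a 12-gene alveolar macrophage list reached 1 FPKM, and the list's summed level was 22515 to 29328 FPKM in knockout libraries and 17914 to 20170 FPKM in control libraries. Most of that sum was Chil3, a secreted lectin. The other 11 markers summed to 4170 to 4669 FPKM in knockout libraries and 5844 to 6366 FPKM in control libraries. Without Chil3 the direction thus turned, but this rested largely on Ear2, which averaged 506 FPKM in knockouts and 2742 FPKM in controls. Ear1 also fell, with means of 31.8 and 980 FPKM, whereas Car4, Itgax and Mrc1 rose on both scales. Of the 12, 4 were higher and 6 lower, or 5 and 6 after the scaling named below. Among all tested genes, 11.0% were higher and 58.8% lower, or 30.0% and 26.0% after that scaling. The 10 most abundant genes took 25.5% to 26.8% of all FPKM in knockout libraries and 13.2% to 13.9% in control libraries. Relative depth, estimated from the value of a fragment in weakly expressed genes, lay between 96.4% and 104.8% of that of control library 1, and the absolute depth is unknown. The estimate searched only depths close to that of control library 1, so it could not have found a larger difference. FPKM are relative to the library, so a shift of all genes depends on the scaling. The median log2 change of all 10847 tested genes was -0.31 as deposited, -0.39 at a common library sum, -0.19 at a common sum without the 10 most abundant genes, and 0.022 after TMM scaling (trimmed mean of M values), which centres the bulk of genes by construction. Counts for the branches are therefore given on both scales, and log2 changes are those of FPKM + 1 in knockout minus control, which understates changes of weakly expressed genes. A gene is said to have risen or fallen where limma's Benjamini-Hochberg adjusted p, taken over all tested genes, was under 0.05.

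In the sterol branch, 20 of the 22 genes fell in knockout libraries, 1 rose and 1 was not called, and all 22 passed the filter of a mean of 1 FPKM. Of all tested genes, 69.8% were called on the same scale, with 58.8% lower and 11.0% higher, so a majority of falls is not in itself particular to sterol genes. The branch's median log2 change was -0.69, which lies 0.38 below the median of all genes. After TMM scaling 16 sterol genes were lower, 1 was higher and 5 were not called, beside 26.0% lower and 30.0% higher among all genes, and the branch's median was -0.33. The gene that rose on both scales was Dhcr7, which encodes a late reductase of cholesterol synthesis. The gene not called on either scale was Mvd.

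Groups did not overlap in 21 of the 22 sterol genes, with 20 lower and 1 higher in knockouts, where 62.4% and 12.1% of all tested genes did the same. After TMM scaling they did not overlap in 15 lower and 2 higher sterol genes, the higher ones being Dhcr7 and Mvd, where the shares of all genes were 30.3% and 34.0%. In bulk RNA, fewer cells of a type and less RNA per cell cannot be told apart.

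**Figure D1:**
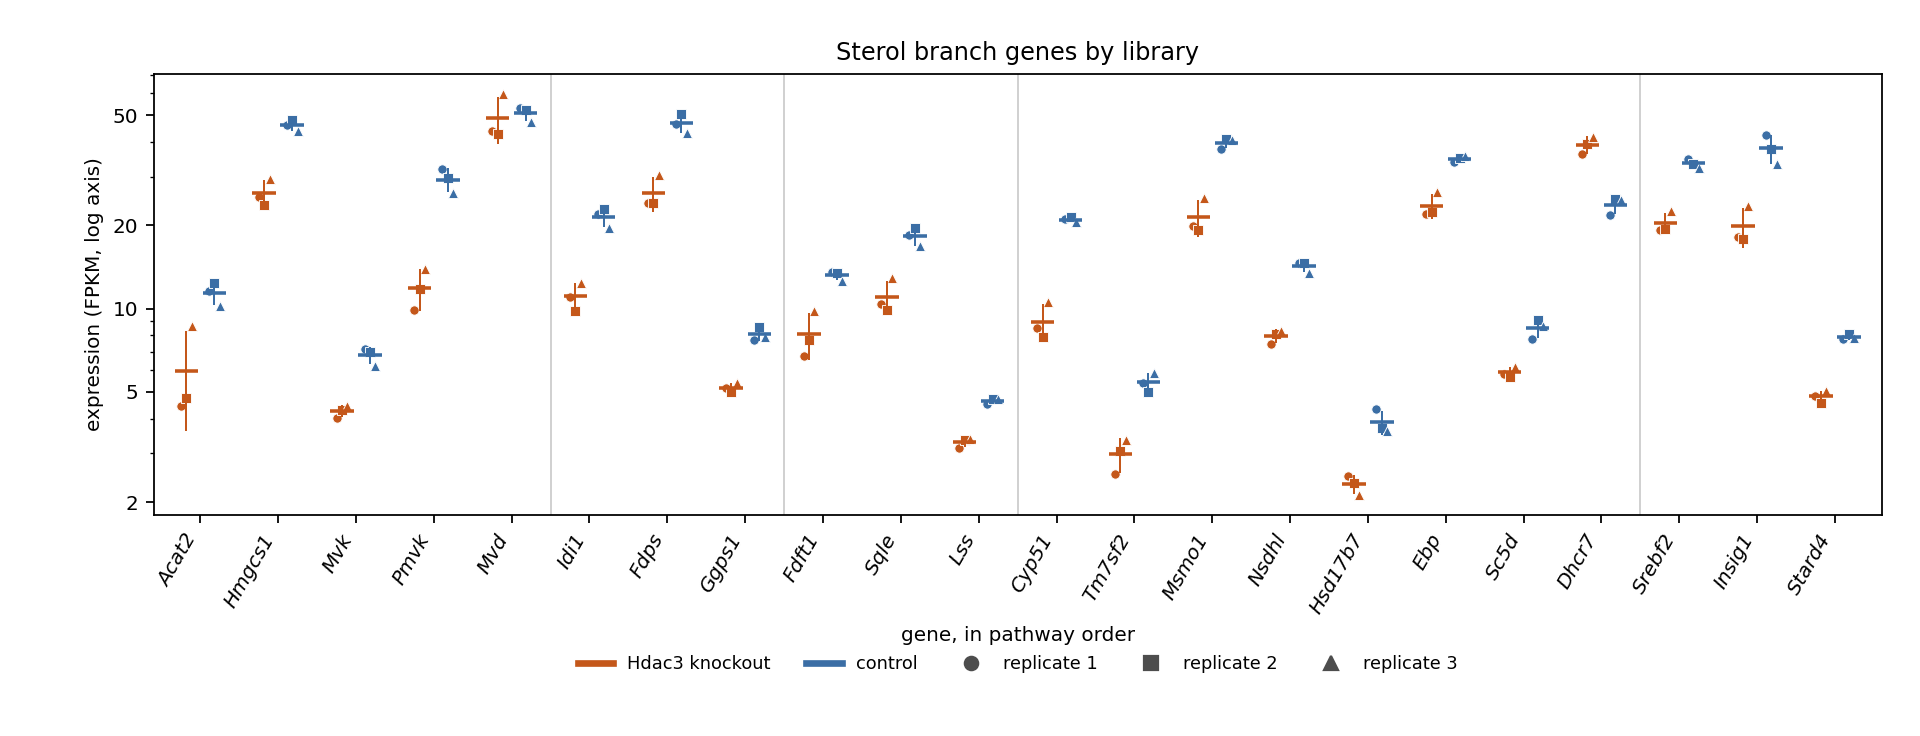
Expression of the 22 sterol branch genes in FPKM on a log axis, with knockout libraries (orange) left of control libraries (blue) for each gene. Symbols are libraries, horizontal bars are group means and vertical bars are SD (n = 3 each); grey lines part the steps of the pathway. The knockout symbols lie below the control symbols for every gene but Mvd, where they overlap, and Dhcr7, where they lie above.

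Promoter windows of sterol genes were also read, and whether any motif had a part in the changes was not tested. RefSeq windows (GRCm38.p6) from 250 bases before to 50 bases after a listed start exist for 18 of the 22 genes, as 21 windows. The genes Fdps, Fdft1, Sqle and Stard4 are named only. The stretches below show the sterol gene whose window holds a sterol regulatory element, the genes with the largest falls, the isomerase Idi1, the gene that rose and the branch's own regulator. Each ends at the base before the listed start, runs 5′ to 3′ on the gene's strand, and has in capitals every CCAAT box (CCAAT, or ATTGG on the other strand) and the sterol regulatory element. They lie at chr13:119690101-119690350, plus strand (Hmgcs1), chr3:89454385-89454540, plus strand (Pmvk), chr5:4104698-4104746, minus strand (Cyp51), chr13:8885541-8885605, plus strand (Idi1), chr7:143830109-143830213, plus strand (Dhcr7) and chr15:82147114-82147268, plus strand (Srebf2).
Hmgcs1: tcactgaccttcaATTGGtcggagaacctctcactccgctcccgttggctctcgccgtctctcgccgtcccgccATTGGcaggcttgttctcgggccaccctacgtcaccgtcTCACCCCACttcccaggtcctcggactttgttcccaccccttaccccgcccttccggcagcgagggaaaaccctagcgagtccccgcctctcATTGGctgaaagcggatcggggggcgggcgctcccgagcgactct
Pmvk: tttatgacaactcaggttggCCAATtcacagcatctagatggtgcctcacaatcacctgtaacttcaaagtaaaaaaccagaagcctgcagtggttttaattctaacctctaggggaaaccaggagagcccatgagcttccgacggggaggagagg
Cyp51: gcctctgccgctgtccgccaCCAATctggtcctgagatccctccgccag
Idi1: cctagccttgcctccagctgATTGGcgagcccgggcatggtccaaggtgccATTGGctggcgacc
Dhcr7: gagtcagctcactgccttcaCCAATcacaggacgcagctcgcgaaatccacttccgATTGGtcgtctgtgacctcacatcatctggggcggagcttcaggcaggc
Srebf2: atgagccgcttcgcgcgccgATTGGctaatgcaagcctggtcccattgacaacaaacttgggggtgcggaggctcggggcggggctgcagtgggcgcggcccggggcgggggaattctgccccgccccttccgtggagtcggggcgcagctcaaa

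The CCAAT box, a site read by the factor NF-Y that works beside SREBPs at many sterol promoters, was found on either strand in 17 of the 21 windows and in 17 of the 18 genes, with Acat2 the exception. It occurs in 37.4% of all 32851 windows and in 38.3% of the 10970 windows of tested genes. Counted by gene, 43.6% of tested genes with a window hold it. A GC box (GGGCGG), a site of Sp factors, was found in 17 windows of 16 sterol genes. It occurs in 35.7% of all windows and in 62.6% of those of tested genes. The sterol regulatory element, searched as TCACNCCAC, was found in the Hmgcs1 window alone, beside 1.24% of all windows and 1.08% of those of tested genes. Only exact letters within the windows were counted, so elements with other letters or outside the windows would have been missed. The E-box CACGTG, which SREBPs can also bind, was found in windows of Hsd17b7, Sc5d, Dhcr7 and Insig1, beside 7.15% of all windows and 10.4% of those of tested genes. No window of a member held an LXR element, searched as 2 AGGTCA repeats with 4 bases between them, and only 5 of all windows did. Both strands were searched for each motif, matches of different motifs did not share bases in sterol windows, and a match is a description of letters. CCAAT boxes lie in the printed stretch of Dhcr7, which rose, as they do in those of Pmvk and Cyp51, which fell. Stretches were printed only from windows with a CCAAT box or sterol regulatory element, so each holds such a site by choice. The printed Dhcr7 stretch lies inside the gene's listed span. The other windows of Dhcr7 hold a GC box or an E-box and no CCAAT box.

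**Figure D2:**
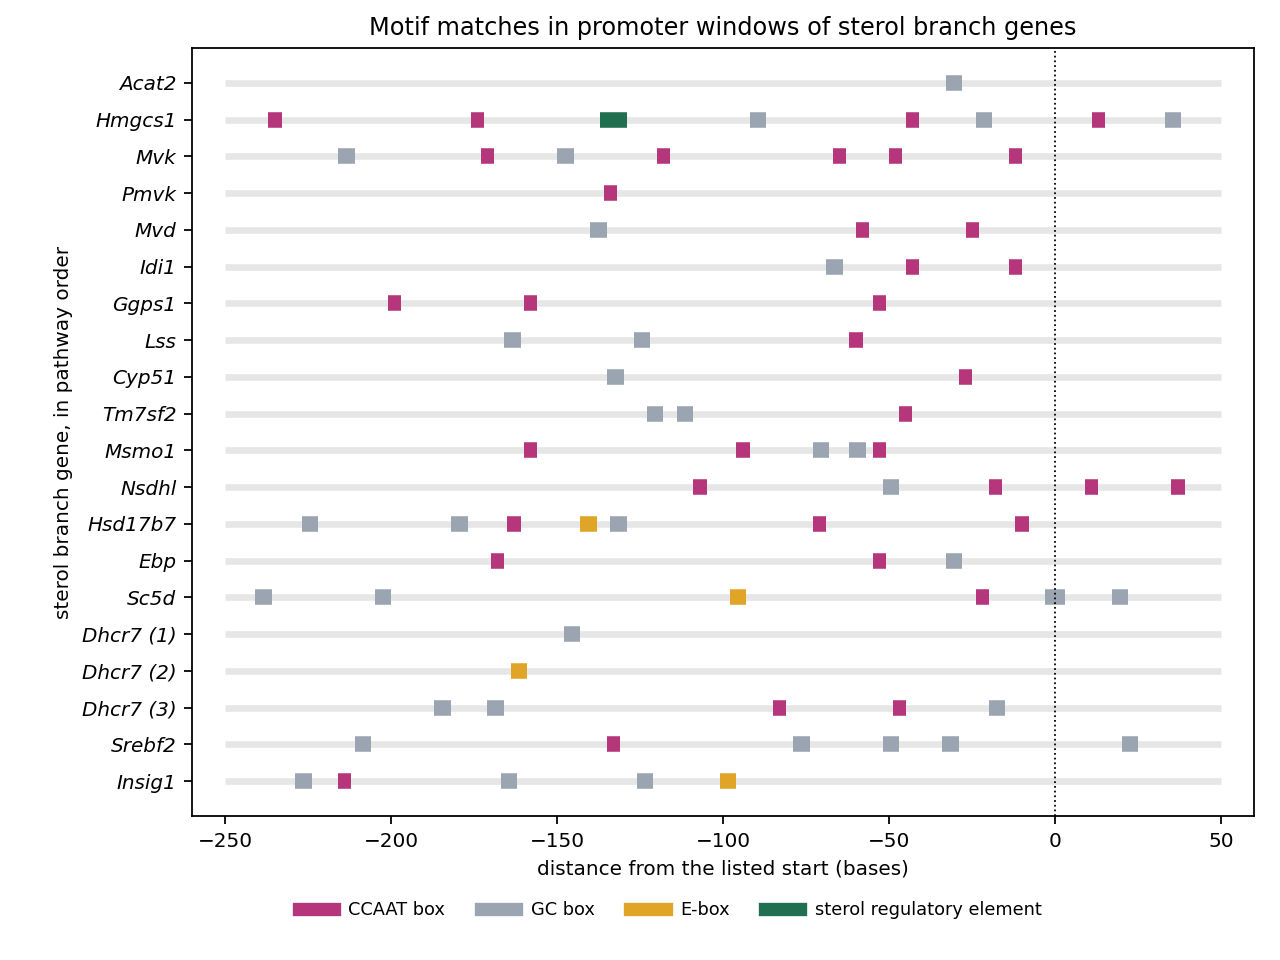
Motif matches in the promoter windows of sterol branch genes, by distance in bases from the listed start, with 1 row per window and genes in pathway order. The 3 windows of Dhcr7 have rows of their own, and the second Pmvk window, which held no match, is not drawn. CCAAT boxes (magenta) lie in 17 of the 18 genes, and the sterol regulatory element (green) lies in Hmgcs1.

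The mevalonate steps turn acetyl-CoA into isopentenyl diphosphate, and 4 of their 5 enzymes fell. Pmvk (phosphomevalonate kinase; Entrez gene 68603, chromosome 3, 89454541 to 89469014) showed the largest fall of the branch. It read 9.88, 11.8 and 13.9 FPKM in knockout libraries, against 31.8, 29.8 and 26.2 FPKM in control libraries, and the highest knockout value lay well below the lowest control value. The knockout mean was 40.6% of the control mean, and the change was -1.24 (SE 0.12; limma adjusted p = 4.2e-05) in log2 units, or -0.88 after TMM scaling.

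Hmgcs1, which condenses acetoacetyl-CoA with acetyl-CoA to HMG-CoA and whose promoter is printed above, read 25.3, 23.6 and 29.4 FPKM in knockout libraries, against 46.1, 47.9 and 43.8 FPKM in control libraries. No knockout library reached a control library. Its change was -0.79 (SE 0.082; limma adjusted p = 3.5e-05), against -0.43 after TMM scaling. Mvk, the kinase that precedes Pmvk, read 4.04, 4.30 and 4.45 FPKM in knockout libraries, against 7.17, 6.97 and 6.23 FPKM in control libraries, again without overlap. It fell by a smaller amount, with a log2 change of -0.56 (SE 0.078; limma adjusted p = 2.0e-04), against -0.25 after TMM scaling.

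Acat2, the thiolase that starts the pathway, read 4.46, 4.74 and 8.67 FPKM in knockout libraries, against 11.6, 12.3 and 10.2 FPKM in control libraries, so knockout library 3 lay near the controls and apart from the other two knockouts. It fell as deposited, with a log2 change of -0.88 (SE 0.23; limma adjusted p = 0.016), but after TMM scaling it was -0.55 and not called (adjusted p = 0.11 by limma), and the groups overlapped. The call was also lost when knockout library 2, control library 1 or control library 2 was left out, with log2 changes of -0.77, -0.86 and -0.82 and limma adjusted p of 0.054, 0.059 and 0.056.

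Mvd, the decarboxylase that makes isopentenyl diphosphate and the most abundant transcript of the branch in both groups, was the exception. It read 43.8, 42.9 and 59.8 FPKM in knockout libraries, against 53.2, 52.1 and 47.1 FPKM in control libraries, and knockout library 3 lay above every control. The change was -0.071 (SE 0.13; limma adjusted p = 0.63) in log2 units with a 95% interval of -0.37 to 0.23, and the sign turned to 0.30 after TMM scaling (limma adjusted p = 0.09). Without knockout library 3 it was -0.22 (limma adjusted p = 0.026), and without knockout library 2 it was 0.012. The ratio of Mvd to Mvk, which no scaling of libraries changes, was 10.8, 9.98 and 13.4 in knockout libraries and 7.43, 7.48 and 7.56 in control libraries, without overlap, so Mvk stood lower relative to Mvd in every knockout library.

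All 3 isoprenoid enzymes fell on both scales. Idi1, which interconverts the isoprenoid building blocks, read 11.0, 9.80 and 12.4 FPKM in knockout libraries, against 21.9, 23.0 and 19.5 FPKM in control libraries. Fdps, the synthase of farnesyl diphosphate, read 24.0, 24.0 and 30.5 FPKM in knockout libraries, against 46.4, 50.5 and 43.3 FPKM in control libraries. Both had every knockout library below every control library, with log2 changes of -0.90 (SE 0.093; limma adjusted p = 3.5e-05) for Idi1 and -0.82 (SE 0.10; limma adjusted p = 1.1e-04) for Fdps. Ggps1, which lengthens farnesyl diphosphate to the geranylgeranyl group used to anchor proteins in membranes, read 5.18, 5.01 and 5.37 FPKM in knockout libraries, against 7.73, 8.55 and 7.93 FPKM in control libraries. Its fall was smaller, with a log2 change of -0.55 (SE 0.07; limma adjusted p = 1.2e-04), against -0.22 after TMM scaling. In the GENCODE annotation the gene model Gm43738 shares 77.4% of the exon bases of Fdps on the same strand, and how reads of that stretch were counted is not given here, so the level of Fdps is uncertain to that extent.

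The enzymes of squalene and lanosterol formation all fell as deposited, and those of squalene also after TMM scaling. Sqle, the epoxidase that is a slow step of the pathway after squalene, read 10.4, 9.89 and 12.9 FPKM in knockout libraries, against 18.5, 19.6 and 16.8 FPKM in control libraries, with a log2 change of -0.69 (SE 0.10; limma adjusted p = 2.7e-04). Its groups did not overlap as deposited but did after TMM scaling, where the change was -0.33 (limma adjusted p = 0.022). Fdft1, squalene synthase, read 6.73, 7.73 and 9.78 FPKM in knockout libraries, against 13.6, 13.4 and 12.6 FPKM in control libraries, with a log2 change of -0.66 (SE 0.11; limma adjusted p = 8.0e-04), against -0.32 after TMM scaling (limma adjusted p = 0.045). Like those of Sqle, the groups of Fdft1 did not overlap as deposited but did after TMM scaling. In the annotation 774 exon bases of Fdft1, 20.9% of its exons, lie opposite exons of Ctsb, a cathepsin gene that averaged 851 FPKM in knockouts and 295 FPKM in controls. Strand handling is not given in the sources used here, so reads of the shared stretch cannot be assigned with certainty. Cyp51, Srebf1 and Elovl1 share 4.22%, 2.54% and 2.73% of their exon bases with genes on the opposite strand, and Tm7sf2 shares 0.826% with a gene on its own strand.

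Lss, which closes oxidosqualene to lanosterol, read 3.15, 3.34 and 3.37 FPKM in knockout libraries, against 4.51, 4.71 and 4.72 FPKM in control libraries. The groups did not overlap, but the fall was among the smallest of the branch at -0.40 (SE 0.073; limma adjusted p = 0.0011). Relative to the median of all genes it was -0.089, and after TMM scaling it was -0.097 and not called (limma adjusted p = 0.28).

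After lanosterol, 7 of the 8 enzymes fell as deposited and 5 of them also after TMM scaling. Cyp51, the demethylase that takes lanosterol into the cholesterol series (Entrez gene 13121, chromosome 5, 4080674 to 4104697), read 8.48, 7.89 and 10.6 FPKM in knockout libraries, against 21.0, 21.4 and 20.5 FPKM in control libraries. The control values lay within a narrow range, and the highest knockout value lay far below it. The knockout mean was 42.8% of the control mean, the change was -1.15 (SE 0.095; limma adjusted p = 1.0e-05) in log2 units, and it was -0.80 after TMM scaling.

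Msmo1, the methylsterol oxidase, read 19.9, 19.2 and 25.2 FPKM in knockout libraries, against 37.8, 41.1 and 40.5 FPKM in control libraries. Nsdhl, its partner dehydrogenase in removing the methyl groups, read 7.47, 8.13 and 8.32 FPKM in knockout libraries, against 14.6, 14.6 and 13.5 FPKM in control libraries. Neither overlapped between groups, and the log2 changes were -0.87 (SE 0.097; limma adjusted p = 6.0e-05) for Msmo1 and -0.76 (SE 0.069; limma adjusted p = 1.6e-05) for Nsdhl. Hsd17b7, the keto reductase of the same reaction series, read 2.48, 2.35 and 2.12 FPKM in knockout libraries, against 4.33, 3.72 and 3.61 FPKM in control libraries and had a log2 change of -0.56 (SE 0.092; limma adjusted p = 5.8e-04). It was the branch's least abundant transcript and the only sterol gene in which knockout library 3 was not the highest of the 3 knockouts. After TMM scaling without knockout library 3, an alternative chosen after seeing the data, it was -0.24 and not called (limma adjusted p = 0.077).

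Tm7sf2, a sterol reductase, read 2.52, 3.06 and 3.36 FPKM in knockout libraries, against 5.39, 5.02 and 5.86 FPKM in control libraries, with a log2 change of -0.69 (SE 0.10; limma adjusted p = 2.5e-04), against -0.39 after TMM scaling. Ebp, the isomerase that moves the ring double bond, read 21.9, 22.4 and 26.3 FPKM in knockout libraries, against 33.8, 35.1 and 35.6 FPKM in control libraries. Sc5d, the desaturase that follows, read 5.82, 5.68 and 6.18 FPKM in knockout libraries, against 7.80, 9.11 and 8.64 FPKM in control libraries. Ebp and Sc5d fell as deposited, by log2 changes of -0.55 and -0.46 (limma adjusted p = 1.9e-04 and 5.6e-04). After TMM scaling they were -0.18 and -0.13 and not called (limma adjusted p = 0.068 and 0.17), and the groups overlapped.

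Dhcr7 (Entrez gene 13360, chromosome 7, 143823167 to 143848410), which reduces dehydrocholesterol in the final step of one of the routes to cholesterol, moved the other way. It read 36.2, 39.4 and 41.9 FPKM in knockout libraries, against 21.8, 24.8 and 24.6 FPKM in control libraries, with every knockout library above every control library. The mean was 39.2 ± 2.83 FPKM in knockouts and 23.7 ± 1.69 FPKM in controls (SD, n = 3 each), a ratio of 1.65. The change was 0.70 (SE 0.075; limma adjusted p = 4.5e-05) in log2 units, or 1.06 after TMM scaling (limma adjusted p = 4.3e-06), and it stayed between 0.64 and 0.75 whichever library was left out.

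Within the branch, Dhcr7 was the second most abundant transcript per length in knockouts and the ninth in controls, and no other sterol gene changed its place by more than 3. In controls the leading genes were Mvd at 50.8 ± 3.29, Fdps at 46.7 ± 3.60 and Hmgcs1 at 45.9 ± 2.03 FPKM (SD, n = 3). Mvd lay above Fdps and Hmgcs1 in every control library, and differences between genes were not tested. In knockouts Mvd at 48.8 ± 9.51 and Dhcr7 at 39.2 ± 2.83 FPKM led, ahead of Fdps at 26.2 ± 3.74 and Hmgcs1 at 26.1 ± 2.97 FPKM (SD, n = 3). The ratio of Dhcr7 to Cyp51 was 4.27, 4.99 and 3.96 in knockout libraries and 1.04, 1.16 and 1.20 in control libraries. Such ratios do not depend on the scaling of libraries.

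The regulators fell with the enzymes. Srebf2, whose product drives the branch, read 19.2, 19.4 and 22.5 FPKM in knockout libraries, against 34.6, 33.4 and 32.4 FPKM in control libraries, without overlap. Insig1, the retention factor that is itself an SREBP target, read 18.1, 17.8 and 23.5 FPKM in knockout libraries, against 42.4, 37.9 and 33.4 FPKM in control libraries. Their log2 changes were -0.69 (SE 0.072; limma adjusted p = 3.6e-05) for Srebf2 and -0.91 (SE 0.12; limma adjusted p = 3.3e-04) for Insig1, and -0.33 and -0.54 after TMM scaling. Stard4, a carrier that moves cholesterol between membranes, read 4.83, 4.57 and 5.05 FPKM in knockout libraries, against 7.78, 8.13 and 7.83 FPKM in control libraries, with a log2 change of -0.62 (SE 0.069; limma adjusted p = 5.4e-05), against -0.29 after TMM scaling. All 3 fell on both scales.

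**Figure D3:**
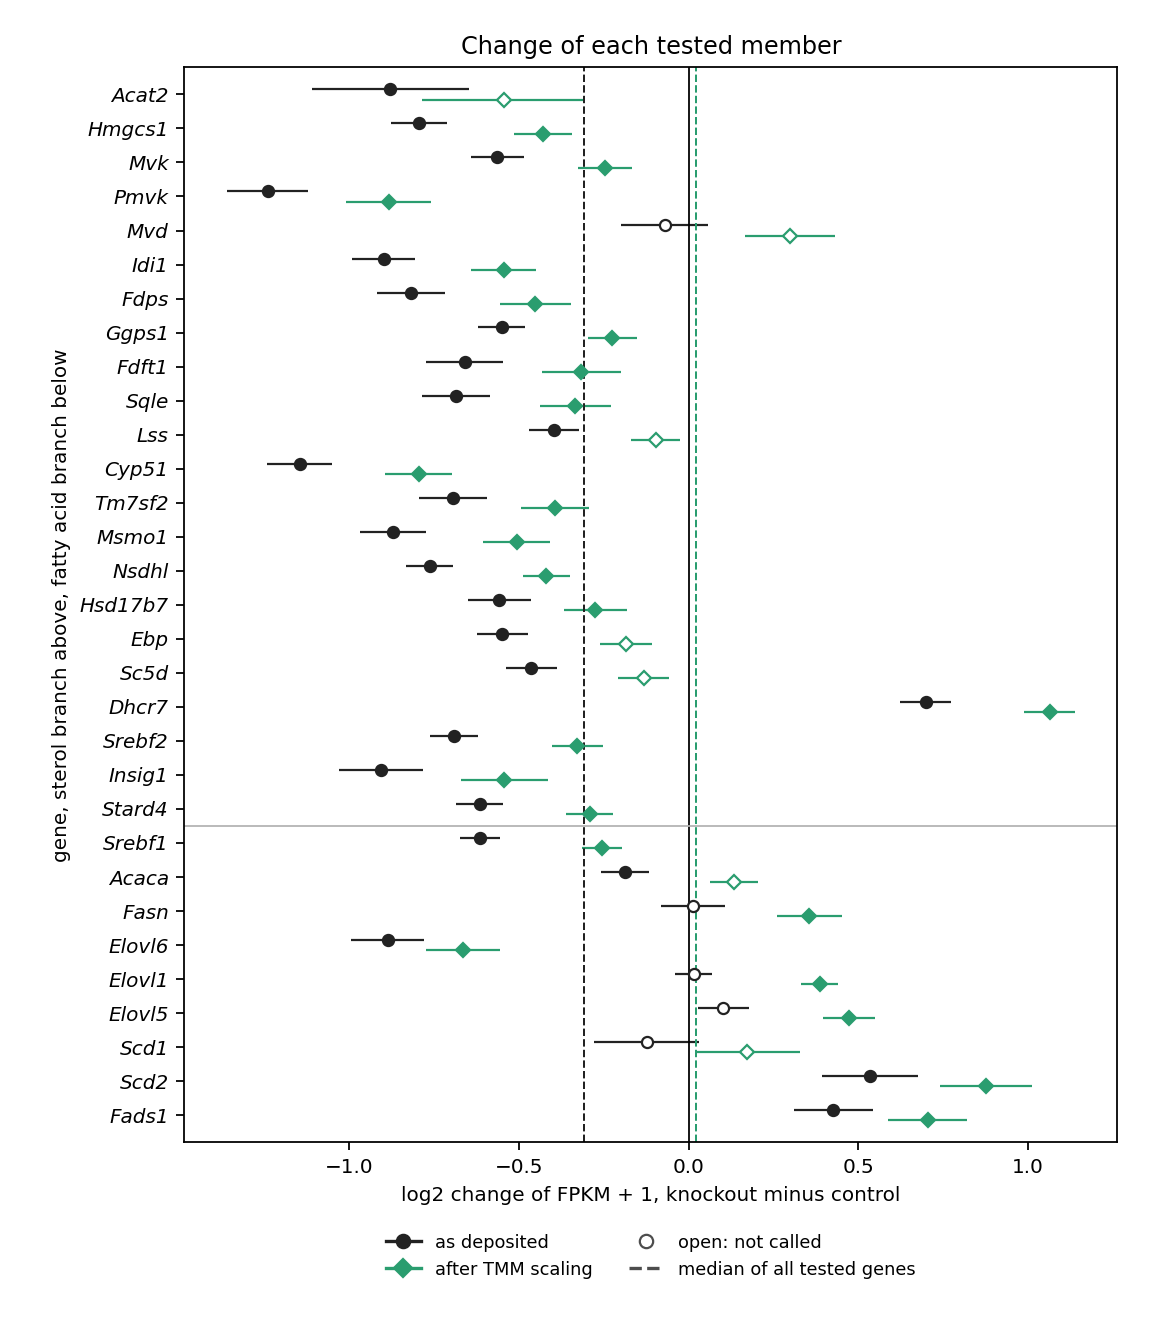
Log2 change of FPKM + 1, knockout minus control, for the 31 tested genes as deposited (black) and after TMM scaling (green), with bars of 1 SE and open symbols for genes that were not called. Dashed lines mark the medians of all tested genes, -0.31 as deposited and 0.022 after scaling. Pmvk and Cyp51 lie farthest to the left, and Dhcr7 lies at the right of the sterol branch at 0.70 and 1.06.

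Within the knockouts the sterol genes shared an order. Library 3 was the highest of the 3 in 21 of 22 sterol genes, or 95.5%, beside 31.7% of all tested genes, and after TMM scaling the count was again 21, beside 34.2%. Its median deviation from the knockout mean was 0.16 on the log2 scale over the sterol genes. Among controls, library 3 was the lowest in 14 of the 22 genes, or 63.6%, beside 37.2% of all tested genes. The summed level of the branch was 295, 297 and 366 FPKM in knockout libraries and 494, 503 and 465 FPKM in control libraries, without overlap. After TMM scaling the sums were 337, 336 and 419 in knockouts and 435, 443 and 404 in controls, where knockout library 3 lay within the range of the controls. These values describe how the libraries ordered, and no test was made.

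**Figure D4:**
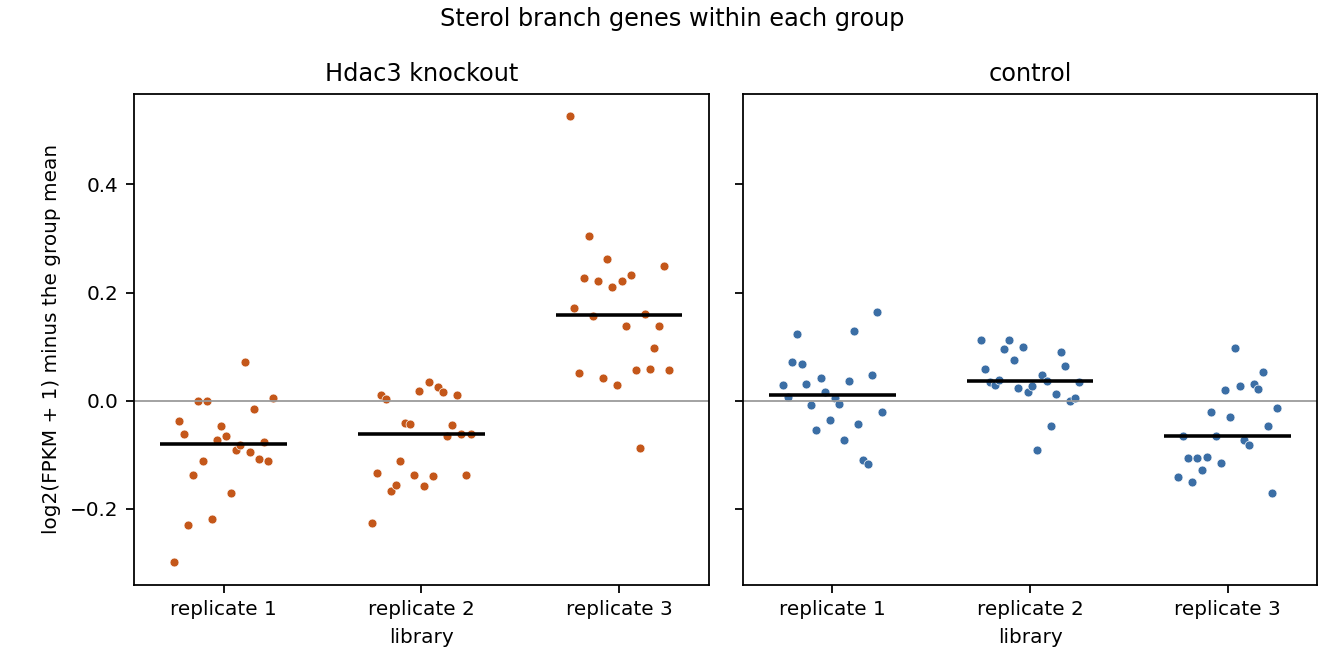
Log2(FPKM + 1) of each of the 22 sterol branch genes minus its own group mean, by library, for knockouts (left) and controls (right). Points are genes and black bars are medians; the points of knockout library 3 lie above 0 for all but 1 gene, with a median of 0.16.

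Sums of markers of other cells were read beside the sterol values. The 10 alveolar type 2 epithelial markers summed to 64.7, 65.4 and 81.2 FPKM in knockout libraries and 176, 137 and 109.6 FPKM in control libraries. They too were highest in knockout library 3 and lowest in control library 3 within their groups. Of this list 9 of 10 reached 1 FPKM in some library, and of 7 tested, 5 fell and 1 rose, or 1 and 1 after TMM scaling. These and the following marker counts stand beside 58.8% lower and 11.0% higher among all tested genes, or 26.0% and 30.0% after TMM scaling. Sftpc, the defining surfactant protein, read 12.7, 16.1 and 26.1 FPKM in knockout libraries, against 88.0, 59.0 and 42.2 FPKM in control libraries. The 10 lymphocyte markers summed to 123 to 162 FPKM in knockouts and 302 to 347 FPKM in controls, mostly from Cd2, and all 8 tested fell on both scales. Without Cd2 the others summed to 7.96 to 8.97 FPKM in knockouts and 23.6 to 41.7 FPKM in controls. The 7 endothelial markers summed to 31.2 to 35.2 FPKM in knockouts and 41.7 to 73.0 FPKM in controls, with 5 of 6 tested lower on both scales and 1 higher after TMM scaling. Without Vwf, the most abundant, the others summed to 4.31 to 6.98 FPKM in knockouts and 21.3 to 47.9 FPKM in controls. The 7 fibroblast markers summed to 3.03 to 10.6 FPKM in knockouts and 8.62 to 18.6 FPKM in controls, with 1 of 5 tested lower on both scales and Tcf21 at 0 in 1 knockout library. The part of these cells in the sterol result was not tested.

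Of 3 further lists, the 8 neutrophil markers summed to 46.4 to 67.6 FPKM in knockouts and 77.1 to 94.6 FPKM in controls, but without Csf3r, the most abundant, to 42.5 to 62.0 FPKM in knockouts and 44.1 to 55.7 FPKM in controls, with 1 of 6 tested lower on both scales, 1 higher after TMM scaling, and Ly6g and Mpo at 0 in some libraries. The 8 dendritic markers summed to 4.58 to 7.94 FPKM in knockouts and 5.30 to 14.8 FPKM in controls, with 1 of 2 tested lower and 1 higher on both scales and Cd209a at 0 in some libraries. The 10 interstitial macrophage and monocyte markers summed to 8.43 to 11.4 FPKM in knockouts and 8.43 to 11.1 FPKM in controls. Of 4 tested, 2 fell and 1 rose, or 1 and 2 after TMM scaling, and Folr2 was at 0 in 1 control library. These close sums hide single markers that moved both ways. As deposited, groups did not overlap in 5 higher and 4 lower interstitial markers, and in 1 higher and 5 lower dendritic markers. Among all tested genes the shares were 12.1% higher and 62.4% lower, and 6 markers of each of these 2 lists were not tested. Like the type 2 sum, the fibroblast and interstitial sums were highest in knockout library 3 and lowest in control library 3 within their groups. The lymphocyte, endothelial, neutrophil and dendritic sums did not have this order in both groups. Without Vwf, however, the endothelial sum did have it. It was then 5.37, 4.31 and 6.98 FPKM in knockout libraries and 47.9, 27.3 and 21.3 FPKM in control libraries. No marker of any list was at 0 in all 6 libraries.

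In the fatty acid branch the calls went both ways. Of its 10 genes, 9 passed the filter, and of these 2 rose, 3 fell and 4 were not called, beside 11.0% higher and 58.8% lower among all tested genes. The median log2 change was 0.014, which lies 0.32 above the median of all genes. After TMM scaling 5 were higher, 2 lower and 2 not called, beside 30.0% higher and 26.0% lower, with a median of 0.36. The difference between the branches was not tested as such. The summed level of the branch was 167, 171 and 172 FPKM in knockout libraries and 171, 170.2 and 177 FPKM in control libraries, and 191, 194 and 197 against 150.3, 150.0 and 154 after TMM scaling, so the sums overlapped on the first scale and not on the second.

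**Figure D5:**
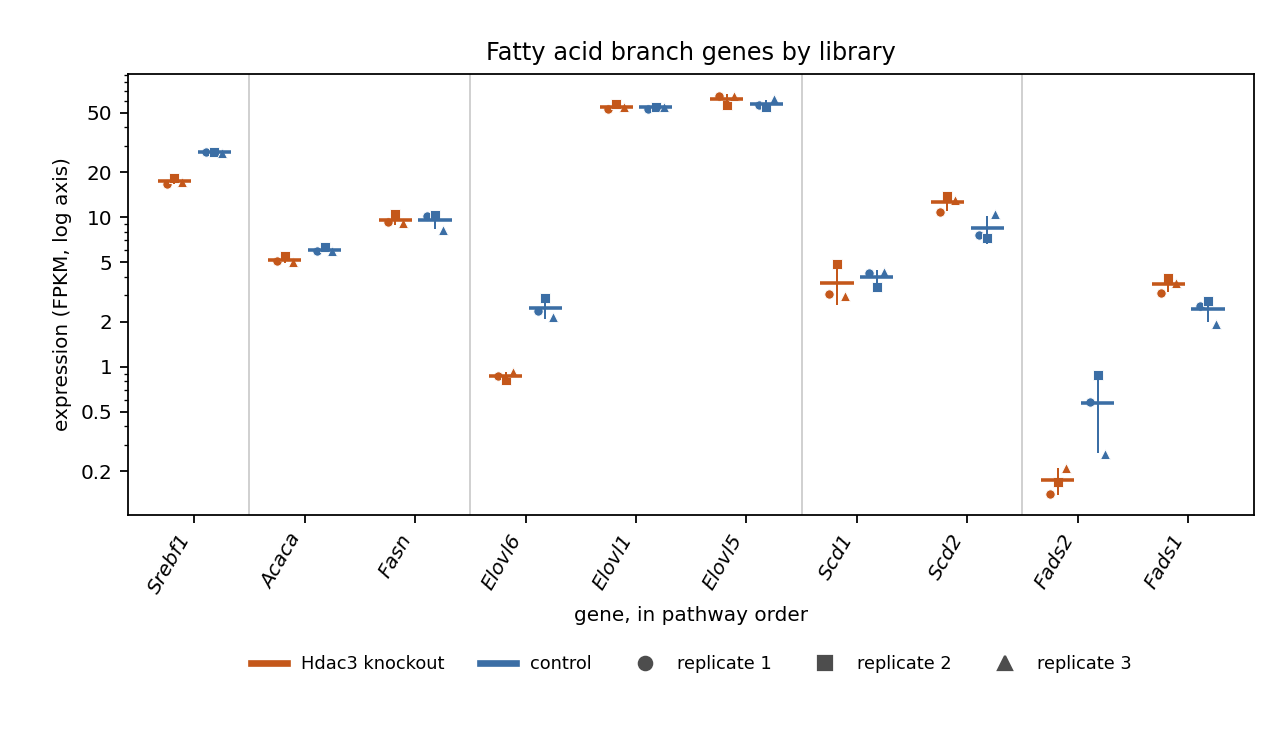
Expression of the 10 fatty acid branch genes in FPKM on a log axis, drawn as for the sterol genes, with knockout libraries (orange) left of control libraries (blue), bars for means and SD (n = 3 each). Srebf1, Acaca, Elovl6 and Fads2 lie lower in knockouts and Scd2 and Fads1 higher, without overlap, while Fasn, Elovl1, Elovl5 and Scd1 overlap.

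Srebf1, the branch's regulator, read 16.8, 18.4 and 17.2 FPKM in knockout libraries, against 27.4, 27.3 and 27.1 FPKM in control libraries. All 3 knockout libraries lay below the narrow range of the controls. Its change was -0.62 (SE 0.059; limma adjusted p = 2.3e-05), against -0.25 after TMM scaling. The ratio of Srebf1 to Srebf2 was 0.872, 0.948 and 0.765 in knockout libraries and 0.792, 0.817 and 0.837 in control libraries, so the groups overlapped.

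The enzymes of palmitate synthesis stayed close to the controls. Acaca, acetyl-CoA carboxylase, which makes malonyl-CoA, read 5.09, 5.50 and 5.03 FPKM in knockout libraries, against 5.94, 6.31 and 5.93 FPKM in control libraries. The groups did not overlap, but the gap was small, and the change was -0.19 (SE 0.071; limma adjusted p = 0.04) in log2 units. That call was lost when any library other than knockout library 2 was left out, with changes of -0.20 to -0.16 and limma adjusted p of 0.053 to 0.13. After TMM scaling the sign turned to 0.13, which was not called (limma adjusted p = 0.14).

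Fasn, fatty acid synthase, read 9.26, 10.4 and 9.18 FPKM in knockout libraries, against 10.2, 10.3 and 8.20 FPKM in control libraries, with overlap between groups. Its change was 0.014 (SE 0.095; limma adjusted p = 0.9) with a 95% interval of -0.20 to 0.23, and it was -0.041 without knockout library 2 and -0.082 without control library 3. After TMM scaling it was 0.36 and called higher (limma adjusted p = 0.011). The ratio of Fasn to Hmgcs1, a synthase of each branch, was 0.366, 0.441 and 0.312 in knockout libraries and 0.221, 0.215 and 0.187 in control libraries, without overlap, so the fatty acid gene stood higher relative to the sterol gene in every knockout library.

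The elongases differed among themselves. Elovl6, which lengthens palmitate to stearate, read 0.870, 0.820 and 0.920 FPKM in knockout libraries, against 2.36, 2.89 and 2.16 FPKM in control libraries. It fell to 35.2% of the control mean, without overlap, with a log2 change of -0.89 (SE 0.11; limma adjusted p = 9.2e-05), against -0.66 after TMM scaling. Because Elovl6 is weakly expressed, the added 1 FPKM makes these log2 changes smaller than the ratio of means.

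Elovl1, which makes very long saturated chains, read 52.8, 56.8 and 55.0 FPKM in knockout libraries, against 53.3, 54.5 and 55.0 FPKM in control libraries. Elovl5, which lengthens polyunsaturated chains, read 65.1, 56.0 and 64.8 FPKM in knockout libraries, against 56.5, 54.6 and 61.6 FPKM in control libraries. Both overlapped between groups, with log2 changes of 0.015 (SE 0.054; limma adjusted p = 0.81) and 0.10 (SE 0.076; limma adjusted p = 0.25) and 95% intervals of -0.11 to 0.14 and -0.07 to 0.27. Without knockout library 2 that of Elovl1 was -0.0099. After TMM scaling they were 0.39 and 0.47 and both were called higher (limma adjusted p = 3.0e-04 and 7.3e-04). The ratio of Elovl5 to Elovl6 was 74.8, 68.4 and 70.4 in knockout libraries and 24.0, 18.9 and 28.5 in control libraries, without overlap.

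The stearoyl-CoA desaturases, which introduce the first double bond into palmitate and stearate, also parted. Scd1 read 3.06, 4.83 and 2.97 FPKM in knockout libraries, against 4.23, 3.41 and 4.27 FPKM in control libraries, with overlap, and its log2 change was -0.12 (SE 0.15; limma adjusted p = 0.49) with a 95% interval of -0.48 to 0.23. It was -0.30 and called lower without knockout library 2 (limma adjusted p = 0.041), and 0.17 and not called after TMM scaling (limma adjusted p = 0.37). Scd2 read 10.8, 13.9 and 12.9 FPKM in knockout libraries, against 7.59, 7.22 and 10.5 FPKM in control libraries, with every knockout library above every control library, although knockout library 1 and control library 3 lay close. Its change was 0.53 (SE 0.14; limma adjusted p = 0.011), against 0.88 after TMM scaling. The ratio of Scd2 to Scd1 was 3.54, 2.88 and 4.36 in knockout libraries and 1.79, 2.12 and 2.46 in control libraries, without overlap. The paralogs are similar in sequence. RSEM is named in the submitters' processing notes, but FPKM do not show how many reads were shared between the paralogs.

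Of the polyunsaturated fatty acid desaturases, Fads1 rose. It read 3.13, 3.95 and 3.64 FPKM in knockout libraries, against 2.55, 2.76 and 1.93 FPKM in control libraries, without overlap, with a log2 change of 0.43 (SE 0.12; limma adjusted p = 0.0097), against 0.71 after TMM scaling. Fads2, which acts before Fads1 in the same series, stayed under the filter and was not tested. It read 0.140, 0.170 and 0.210 FPKM in knockout libraries, against 0.580, 0.880 and 0.260 FPKM in control libraries, and the lowest control library lay just above the highest knockout library.

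Promoter windows exist for 7 of the 10 fatty acid genes, as 10 windows, and Scd1, Scd2 and Fads1 are named only. A CCAAT box was found in 5 windows of 4 genes, Srebf1, Fasn, Elovl1 and Elovl5. A GC box was found in 5 windows of 3 genes, Srebf1, Elovl1 and Fads2. The E-box was found in Elovl5, and no window held the sterol regulatory element. In Elovl1 a CCAAT box and a GC box shared bases, as did CCAAT boxes on opposite strands in Fasn. The shares of all windows are those given for the sterol genes.

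The order of libraries within the knockouts differed from that of the sterol genes. Knockout library 2 was the highest in 7 of the 9 tested fatty acid genes and library 3 in 1, where library 2 was the highest in 35.6% of all tested genes.

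Some other enzymes near sterol synthesis were listed apart from the 32 genes. Of these, the sterol reductase Lbr fell with a log2 change of -0.69 (SE 0.096; limma adjusted p = 2.0e-04), and the mitochondrial thiolase Acat1 with one of -0.75 (SE 0.11; limma adjusted p = 4.5e-04). Both also fell after TMM scaling. Idi2 stayed under the filter, and Erg28 and Faxdc2 were not matched by symbol.

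The control of SREBP activity was listed as 12 genes, of which 9 fell and 1 rose, beside 58.8% lower and 11.0% higher among all tested genes. After TMM scaling 4 fell and 3 rose, beside the 26.0% and 30.0% of all genes. The list's median log2 change was -0.38, against -0.31 for all genes. Scap, the escort, read 16.5, 17.3 and 16.8 FPKM in knockout libraries, against 27.6, 25.9 and 23.7 FPKM in control libraries, without overlap, with a log2 change of -0.58 (SE 0.068; limma adjusted p = 7.9e-05), against -0.22 after TMM scaling. Mbtps1, the protease that makes the first cut, had a log2 change of -0.77 (SE 0.059; limma adjusted p = 6.7e-06), and Erlin1, an endoplasmic reticulum protein of sterol-controlled protein breakdown, of -0.95 (SE 0.077; limma adjusted p = 9.0e-06). Fbxw7, which marks active SREBPs for breakdown, had a log2 change of -0.65 (SE 0.074; limma adjusted p = 6.2e-05). All 4 of these also fell after TMM scaling. Insig2 had -0.34 (SE 0.079; limma adjusted p = 0.0039) and was -0.017 and not called after TMM scaling. The gene that rose was Ube2g2, a ubiquitin-conjugating enzyme named after its value was seen, at 0.25 (SE 0.055; limma adjusted p = 0.003). The ratio of Insig1 to Insig2 was 3.36, 3.22 and 4.95 in knockout libraries and 6.51, 5.23 and 4.86 in control libraries, which overlapped.

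Of 14 further genes listed as SREBP targets, 10 were tested, and 5 fell and 1 rose, or 3 and 2 after TMM scaling, beside the 58.8% lower and 11.0% higher, or 26.0% and 30.0%, of all tested genes. The median log2 change was -0.20. The phosphatidate phosphatase gene Lpin1 fell by a log2 change of -1.25 (SE 0.15; limma adjusted p = 3.4e-04), and the mitochondrial citrate carrier Slc25a1 by -0.80 (SE 0.15; limma adjusted p = 0.0027). Acly, which splits citrate into the acetyl-CoA that both branches use, fell as deposited at -0.37 (SE 0.059; limma adjusted p = 4.5e-04) and stood at -0.0018 and was not called after TMM scaling. Fabp5, a fatty acid binding protein, rose and read 504, 540.0 and 512 FPKM in knockout libraries, against 239, 279.5 and 199 FPKM in control libraries, with a log2 change of 1.13 (SE 0.11; limma adjusted p = 4.1e-05). Me1, Pnpla3 and Thrsp stayed under the filter.

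Of 20 further genes of fatty acid synthesis and elongation, 19 were matched and 11 tested, and 7 fell and 1 rose, or 4 and 3 after TMM scaling. All tested genes were 58.8% lower and 11.0% higher, or 26.0% and 30.0% after TMM scaling, and the list's median log2 change was -0.51. The dehydratases Hacd3, Hacd4 and Hacd1 had log2 changes of -0.97 (SE 0.066; limma adjusted p = 3.3e-06), -0.95 (SE 0.10; limma adjusted p = 4.8e-05) and -0.86 (SE 0.14; limma adjusted p = 6.0e-04), and the desaturase gene Fads3 of -0.91 (SE 0.10; limma adjusted p = 5.3e-05). All 4 also fell after TMM scaling. The gene that rose, Hsd17b12, the keto reductase of the elongation cycle, was named after its value was seen and had 0.30 (SE 0.089; limma adjusted p = 0.013).

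Of 14 genes that use isoprenoids for dolichol, ubiquinone or protein prenylation, 7 fell and 1 rose, or 1 and 5 after TMM scaling, beside 58.8% lower and 11.0% higher, or 26.0% and 30.0%, among all tested genes. The median log2 change was -0.19, which lies 0.11 above that of all genes. Rabggta, a subunit of the transferase that prenylates Rab proteins, had a log2 change of -0.98 (SE 0.069; limma adjusted p = 4.1e-06) and fell on both scales. Dhdds of dolichol synthesis, Zmpste24, a protease of prenylated proteins, and Pdss2 of ubiquinone synthesis had -0.53, -0.38 and -0.30 (limma adjusted p = 2.5e-04, 2.4e-04 and 0.0089) and lost their calls after TMM scaling. The gene that rose, Nus1, named after its value was seen, had 0.25 (SE 0.081; limma adjusted p = 0.022), and this call was lost without knockout library 1, knockout library 3 or control library 3, with a limma adjusted p of up to 0.079.

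The LXR receptors, their partners and targets form a list of 10 genes, of which 6 fell and 2 rose, or 3 and 4 after TMM scaling, beside the 58.8% lower and 11.0% higher, or 26.0% and 30.0%, of all tested genes. The median log2 change was -0.42. Abca1, the cholesterol exporter and a classic LXR target, read 23.0, 16.8 and 16.8 FPKM in knockout libraries, against 13.1, 10.8 and 15.5 FPKM in control libraries, without overlap. Its change was 0.49 (SE 0.16; limma adjusted p = 0.03), against 0.84 after TMM scaling, and the call as deposited was lost without knockout library 1, control library 1 or control library 2, with a limma adjusted p of up to 0.075. Abcg1, another sterol exporter, rose with a log2 change of 0.33 (SE 0.076; limma adjusted p = 0.0036). The receptors Nr1h2 and Nr1h3 had log2 changes of -0.67 (SE 0.052; limma adjusted p = 7.5e-06) and -0.25 (SE 0.064; limma adjusted p = 0.0061), and Nr1h3 was 0.11 and not called after TMM scaling. The partners Rxra and Rxrb had -0.90 and -0.60 (limma adjusted p = 1.5e-05 and 4.5e-04), and Rxrb lost its call after TMM scaling. Apoe, an LXR target in macrophages, had -0.88 (SE 0.16; limma adjusted p = 0.0019).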

How the data were processed

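Gene expression of sorted alveolar macrophages was measured by RNA sequencing in 3 Hdac3 knockout and 3 control libraries. Per the labels' protocols, Trizol was used for total RNA and libraries were made by standard BGI procedures. Nothing in the labels says that libraries are separate mice, so the p-values reflect only the spread among libraries, which may be technical. Bowtie2 and RSEM, without versions, and the build mm10 come from the submitters' processing notes. The authors deposited gene-level FPKM with 2 decimals, per the file headers, 1 column per library, and counts were not used. Groups and replicate numbers were taken from the sample titles. Strand use and read filtering were not given in the sources used here.

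Differences were tested with limma 3.58.1 (R 4.3.3) on log2(FPKM + 1) (trended, robust empirical Bayes, two-sided, genotype the only term) applied to the 10847 genes whose mean over the 6 libraries reached 1 FPKM, with Benjamini-Hochberg adjustment over all of them. The script was tested on simulated data, where it missed part of the changes, more of the smaller ones, and made a larger share of false calls than the adjusted p threshold of 0.05 names. The threshold thus understated the share of false calls in that simulation. The script passed only a criterion that was relaxed after a first, stricter one had failed. FPKM keep no absolute depth, so no counting interval is given. TMM factors (30% of log ratios and 5% of levels trimmed at each end) were computed from the FPKM, and 10817 genes passed the filter after scaling. Other alternatives were a common library sum with and without the 10 most abundant genes, a pseudocount of 0.1 FPKM, no filter or a minimum mean of 5 FPKM, plain empirical Bayes, leaving out each library, and a replicate block. The 32 genes, the gene lists, the markers and the rule for named genes (all 32, up to 4 called genes per further list by size of change, and single genes that include Scap, Insig2, Nr1h3, Abca1, Acly and Lbr) were chosen with earlier results of these data known. Some genes that this rule names are not reported here. Lists are described by counts and medians, without a test. Coordinates and promoter windows are RefSeq's on GRCm38.p6, the assembly mm10 corresponds to, and exon overlaps come from GENCODE on the same assembly. All 32 genes matched RefSeq. Motifs were searched as exact letters on both strands.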

Additional observations from a re-analysis of the deposited data

How the results depend on the processing

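Over all tested genes, 1194 were higher and 6376 lower as deposited. TMM scaling gave 3248 higher and 2808 lower, with a replicate block as well 3110 and 2653, and with TMM scaling but without knockout library 3 (chosen after seeing the data) 3001 and 2756. Of the sterol genes, 21 were called as deposited, 20 of them lower, and 13 and 12 with TMM scaling and a replicate block together. Of the fatty acid genes, 5 were called and 2 were higher as deposited. A minimum mean of 5 FPKM left 6 of them to test, with 3 called and 1 higher, and 5 were higher with TMM scaling, with TMM scaling and the replicate block, and with TMM scaling without knockout library 3. Log2 changes of 5 genes, none of them called higher or lower with the turned sign, changed sign. Mvd was -0.071 as deposited, 0.30 with TMM scaling alone or with the block, 0.13 with TMM scaling without knockout library 3, 0.058 at a common sum without the 10 most abundant genes, and -0.22 to 0.012 when single libraries were left out. Acaca was 0.13 with TMM scaling alone or with the block and 0.14 without knockout library 3 as well, and Scd1 was 0.17 and 0.26 in the same order. At a common sum Fasn was -0.076 and Elovl1 -0.082. With single libraries left out Fasn was -0.082 to 0.065, and Elovl1 -0.0099 to 0.042. The causes were not tested. The other alternatives left the counts of both branches within 1.5 times those as deposited. The replicate numbers did not pair the libraries, with correlations of -0.11, -0.06 and -0.09 between same-numbered libraries. With the replicate block alone Acaca lost its call (limma adjusted p = 0.066) and the call status of the other 30 tested genes did not change. The unknown depth limits what can be said of weakly expressed genes such as Fads2 and Elovl6.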
